A study of Sus scrofa with 102 samples.

Results

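The extracellular matrix and adhesion genes of crossbred pigs were followed here in fat, liver and muscle. They are the probes that the study's own lists of genes with a more than 2-fold difference between LWDL and LWDM pigs name by the symbol of a collagen, a matrix glycoprotein, a matrix protease or cross-linking enzyme, a cadherin, a claudin or an integrin gene. This rule gave 40 probes of 34 genes, out of 2011 listed probes with 1526 symbols and 43221 probes on the array. The members were therefore chosen by the measured difference between LWDL and LWDM pigs in the tissue and age of the list, and those differences are given below as a description. Where members past the threshold are counted for them, the count applies the rule of the lists again and is no test of the members. Differences between tissues and between ages, averaged over both crosses, were not used by the rule and were tested. A gene had to give signal in a listed tissue to be listed at all.

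LWDL and LWDM pigs were the offspring of Landrace x Large White x Duroc (LWD) females and a Landrace boar (LWDL) or a Meishan boar (LWDM). Each of 102 arrays held the RNA of 1 female pig, labeled with Cy3, against a common control of liver RNA of LWD sows, labeled with Cy5, and no dyes were swapped. Liver and muscle (longissimus dorsi) were measured in fetuses at gestational day 85 (6 LWDL and 6 LWDM), and liver, muscle and fat (subcutaneous adipose tissue) in sucklings aged 12 days (5 LWDL and 6 LWDM) and in fattening pigs aged 5 months (8 LWDL and 7 LWDM). Only 1 boar of each breed and 2 LWD females were used, so that the breed of the boar and the boar itself cannot be told apart, and the fetuses were collected after the other pigs. Each value below is a log2 ratio of the pig's signal to the control's signal, so a value of 0 is the level of the same probe in sow liver. Values of different probes are not compared with each other.

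The extracellular matrix is the scaffold of collagens, glycoproteins and proteoglycans that cells secrete around themselves, and it includes the basement membrane that lines epithelia, vessels, muscle fibers and adipocytes. Lysyl oxidase stiffens it by cross-linking collagen and elastin, and metalloproteases of the MMP and ADAMTS families cut or process its proteins. Cells hold on to the matrix through integrins and to each other through cadherins and, in sealing junctions, claudins. Fibroblasts, preadipocytes and the connective tissue cells of muscle are major sources of fibrillar collagen, whereas hepatocytes make little of it.

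Over the arrays, Cy3 signal well above background was found for 65.7% to 81.3% of the probes (median 72.9%). Among the members, 7 genes were well above background on all 102 arrays, and 261 of 4080 member values were exactly 0, which means that both channels lay at background. In both fat ages the adipocyte markers (6 of a list of 18 had a name here) had group medians of 4.24 to 4.65, compared with 1.67 to 2.68 in muscle and -0.75 to 0.26 in liver, and the skeletal muscle markers (13 of 18) had group medians of 5.40 to 6.11 in muscle. The skeletal muscle markers were also high in fat, at medians of 4.48 (LWDL) and 5.12 (LWDM) in sucklings and of 1.14 (LWDL) and 3.13 (LWDM) in fattening pigs, and only -0.10 to 0.78 in liver. The only 2 hepatocyte genes with a name, CYP2C18 and CYP3A4, had a joint median of -0.49 in LWDL and -0.89 in LWDM liver of fattening pigs and of -7.94 and -7.26 in liver of fetuses, where they were about as low as in fat and muscle. Of 3 named fibroblast markers, 2 are members (COL1A2 and POSTN), so that list cannot serve as a check. A marker had a name only where the study's lists of probes that differed between crosses held it. Differences between crosses in these markers are therefore partly set by that choice, and the markers do not stand for their whole lists.

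A pair of arrays stood apart from the others of their tissue and age, over 31526 probes. The suckling muscle array of LWDL replicate 2 had a mean correlation of 0.133 with the other suckling muscle arrays, and a skeletal muscle marker level of 0.22. Its highest mean correlation was 0.183, with fattening liver. The 2 hepatocyte genes reached 1.12 in its group, where their median was -7.89. The fetal liver array of LWDL replicate 2 had a mean correlation of 0.213 with the other fetal liver arrays, whereas the lowest for any other array was 0.479. This fetal array was nearest to suckling liver, at 0.381. The hepatocyte genes reached 0.003 in its group, where their median was -7.94. Of 164 differences of a tested member between tissues, ages or crosses that include one of these 2 arrays, 159 kept their call without it, 2 lost it, 3 gained it and 0 turned, and the value without the array is given beside each such difference of a single gene that is named below. No such value was computed for fits of LWDL arrays alone, in which these arrays weigh more. On 83 probes that differed in the same direction between crosses in fat and liver of sucklings, 8 of 11 suckling muscle arrays lay on the side of the other cross, so suckling muscle is used here mainly as the average of both crosses. In the lists, the fat probes of one age matched the arrays labelled with the other age: of 12 member probes listed for fat of sucklings, 0 were called there and 7 in fat of fattening pigs, and of 3 listed for fat of fattening pigs, 0 were called there and 3 in fat of sucklings. The free-text label of the 15 fattening fat samples names liver, whereas their title and tissue entry name fat, and the adipocyte markers were at the level given above for fat. The ages given below are those of the array labels, and 4 fat arrays labelled as fattening pigs, whose numbers do not occur among sucklings, had mean correlations of 0.913 to 0.955 with the other fattening arrays and of 0.809 to 0.853 with the suckling arrays. Where the fat age labels are exchanged below, these 4 arrays kept theirs. The exchanged fattening group thus held arrays of both age labels, and its differences are no mirror image of those by the labels.

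The members comprised 6 collagen genes (COL1A2, COL6A4P2, COL6A5, COL6A6, COL8A1 and COL9A3), 6 genes of glycoproteins and the basement membrane (LAMB3, MFAP5, NID1, POSTN, THBS1 and THBS2) and 10 genes of cross-linking and proteases (ADAMDEC1, ADAMTS1, ADAMTS2, ADAMTS3, ADAMTS19, ADAMTS20, ADAMTSL3, LOX, MMP3 and MMP7). The others were 6 cadherin and protocadherin genes (CDH1, CDH6, CDH19, PCDH11X, PCDH17 and PCDHB16), 3 claudin genes (CLDN10, CLDN11 and CLDN14) and 3 integrin genes (ITGA2, ITGBL1 and ITGB1BP1, the last of which encodes a protein that binds an integrin tail). The map of group means shows the levels of all of them.

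**Figure D1:**
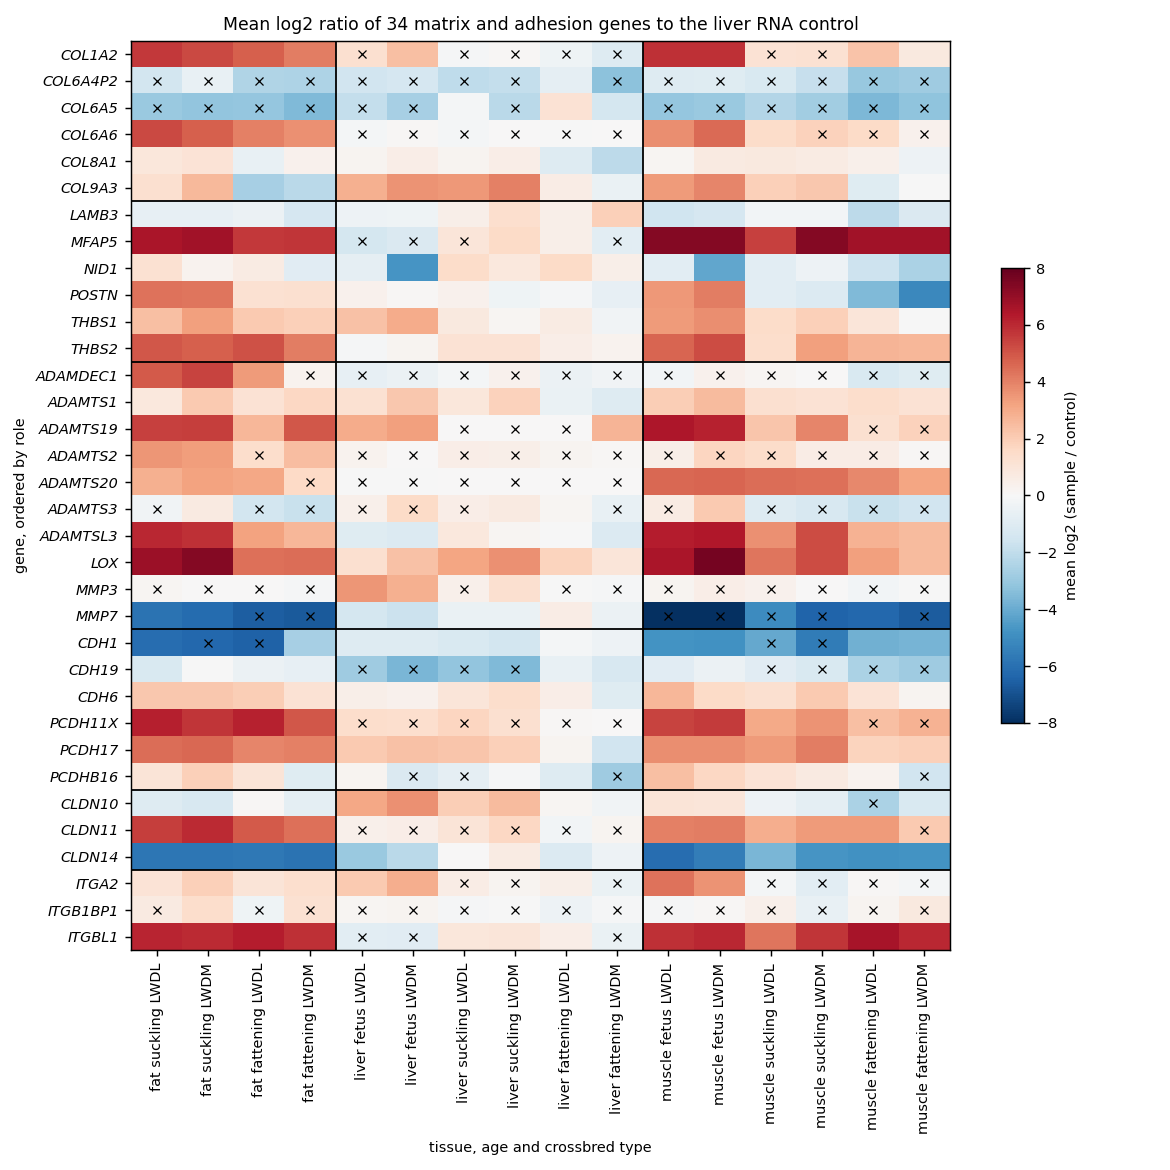
Mean log2 ratio of sample to control (colour scale) of the 34 genes (vertical axis, by gene group) in the 16 groups of tissue, age and cross (horizontal axis), where a cross marks groups in which most arrays were not well above background. MFAP5, ITGBL1 and ADAMTSL3 were high in fat and muscle and COL1A2 in fat and fetal muscle, whereas MMP7, CLDN14 and CDH1 were low there, and LWDL and LWDM of the same tissue and age mostly had similar colours.

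More members were called higher than lower in fat and in muscle against liver at each age, by a wide margin in fat and in fetal muscle and a narrow one in postnatal muscle, and more were called lower than higher with age in each step but that of liver from fetuses to sucklings. A difference was called where it was over 2-fold with a limma adjusted p under 0.05 over all tested probes, and a probe was tested where 1 or more of the groups compared had all of their arrays well above background. Between fat and liver of sucklings, 25 of 28 tested members were called, 19 higher and 6 lower in fat, whereas 30.8% of all tested probes were called. At 5 months the comparison of fat with liver called 26 of 28 (19 higher in fat), against 36.1% of all probes. Between muscle and liver, 21 of 26 were called in fetuses (16 higher in muscle, against 34.7% of all probes called), 18 of 22 in sucklings (11 higher and 7 lower, against 35.9%) and 21 of 25 in fattening pigs (12 higher and 9 lower, against 43.6%). Between fat and muscle, 16 of 28 were called in sucklings (14 higher in fat, against 25.7% of all probes) and 19 of 27 in fattening pigs (15 higher in fat, against 35.7%). The median difference of the tested members from liver was 2.59 in suckling fat, 1.89 in fattening fat, 2.09 in fetal muscle, 0.85 in suckling muscle and 0.83 in fattening muscle, where the median over all tested probes was between 0.01 and 0.13. The genes that were not tested (6 to 12 of 34) lacked signal on some arrays of every group, and a gene that passes only through the tissue where it is high must differ, so these counts describe the members and are no evidence about them. For the same reason the adjusted p beside a lower bound (at least so many fold), or beside a group with few arrays well above background, is that of the fit and supports nothing further.

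With age, 12 of 28 tested members were lower and 1 higher in fat of fattening pigs than in that of sucklings, where 16.3% of all tested probes were called (8.32% higher and 7.96% lower). With the fat age labels exchanged, 8 members were called there, 7 higher and 1 lower in fattening pigs, so the direction in fat rests on the labels. In muscle, 13 of 25 were lower and 3 higher in sucklings than in fetuses (27.3% of all probes called, 14.9% lower), and 11 of 22 were lower and 2 higher in fattening pigs than in sucklings (24.8% called, 7.82% lower). Liver moved in both directions: 9 of 21 members were higher and 5 lower in sucklings than in fetuses (22.3% of all probes called), and 3 of 21 were higher and 10 lower in fattening pigs than in sucklings (28.1% called, 8.87% lower). The median difference of the tested members was -0.85 in fat, -1.12 and -1.0 for the earlier and later step in muscle, and 0.54 and -0.93 in liver, with medians over all tested probes of -0.13 to 0.01. The arrays of each slide held 1 tissue and 1 age only, so a slide difference is part of each of these comparisons. Fewer cells of a type and less RNA per cell cannot be told apart in such tissue samples.

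**Figure D2:**
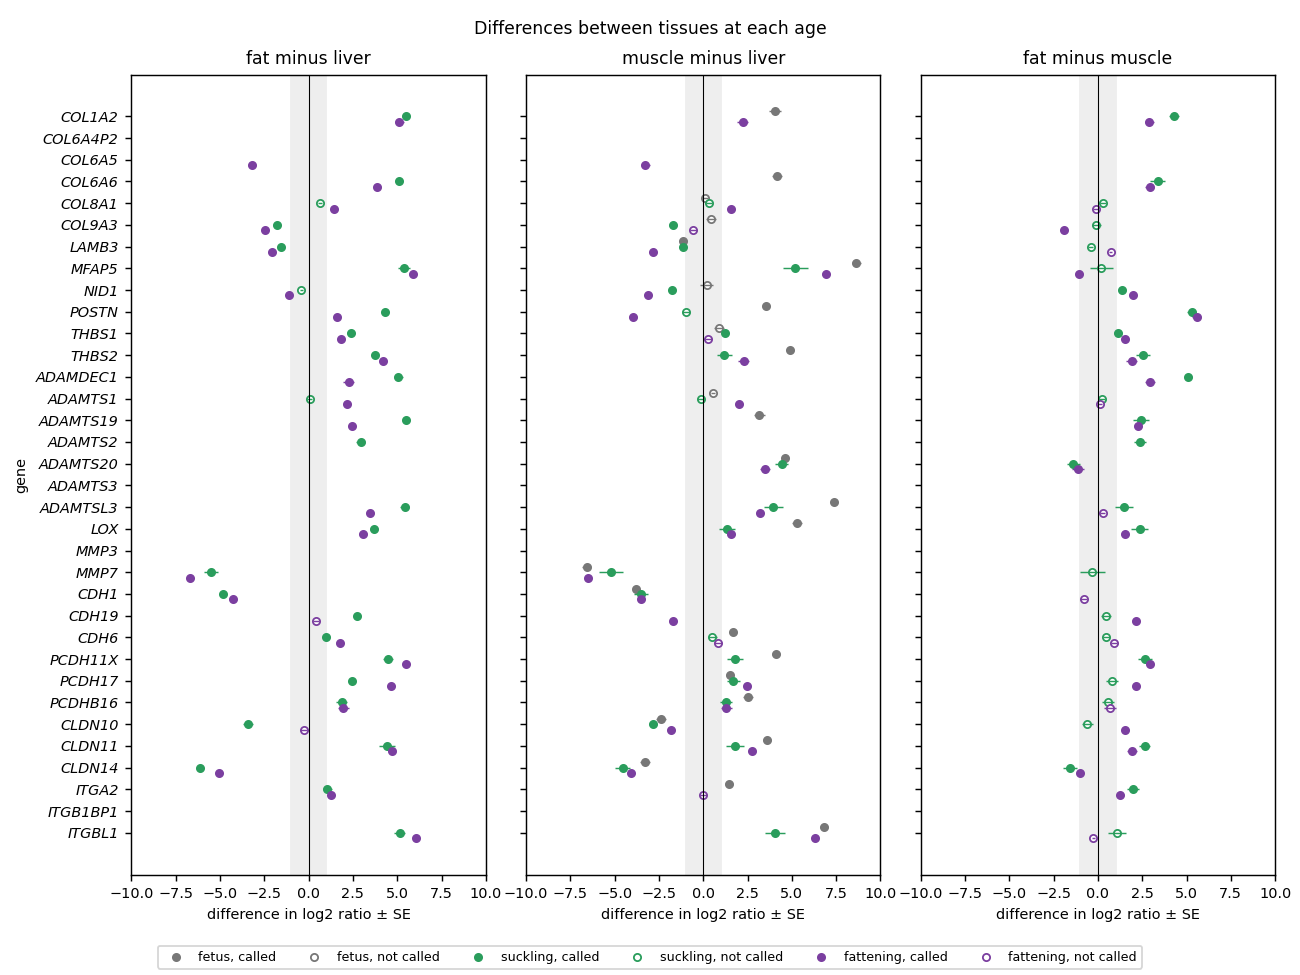
Difference in mean log2 ratio between tissues (horizontal axis, with SE as bars) for each gene (vertical axis) in fetuses, sucklings and fattening pigs, where filled points were called and the grey band marks differences within 2-fold. For fat against liver, 19 of 28 tested genes were called to the right of the band at each age, for muscle against liver 16 of 26 in fetuses, 11 of 22 in sucklings and 12 of 25 in fattening pigs, and MMP7, CLDN14 and CDH1 lay far to the left at every age.

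Among the collagens, COL1A2, which encodes a chain of the main fibrillar collagen of connective tissue, was high in fat and fetal muscle and well above background on 0 of 11 suckling and 1 of 15 fattening liver arrays. In suckling fat its log2 ratios were 4.88 to 6.19 (median 5.37, 11 of 11 arrays well above background), and in suckling liver they were -0.56 to 1.06 (median -0.22, 0 of 11). All fat arrays lay above all liver arrays, with an at least 5.04-fold higher level in fat (adjusted p = 1.69e-16). In muscle, COL1A2 was 4.35 to 6.98 (median 6.06) in fetuses and -0.32 to 2.98 (median 0.80, 2 of 11 arrays well above background) in sucklings. The fetal arrays did not overlap with the suckling arrays, and the level fell by 4.69 (SE 0.36, adjusted p = 3.31e-10), or by 4.51 without the array that stood apart. COL1A2 was also 4.29 higher in fat than in muscle of sucklings (SE 0.28, adjusted p = 8.01e-11, or 4.10 without that array). COL6A6, a chain of the beaded-filament type VI collagen, had a higher log2 ratio in fat than in muscle, by 3.37 in sucklings (3.12 without that array) and by 2.92 in fattening pigs, but muscle was well above background on only 5 of 11 and 1 of 15 arrays.

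COL9A3, a chain of a collagen that decorates fibrils and is best known from cartilage, had the largest decrease with age among the members in fat and in postnatal liver. In fat its log2 ratios were 0.56 to 3.34 (median 2.12) in sucklings and -3.46 to -1.91 (median -2.40, 10 of 15 arrays well above background) in fattening pigs. The groups were fully separate, and the level fell by 4.36 (SE 0.18, adjusted p = 6e-16). In liver the ratios were 3.10 to 4.31 (median 3.74) in sucklings and -1.14 to 1.33 (median 0.09) in fattening pigs, again without overlap (difference -3.71, SE 0.15, adjusted p = 2.59e-17). In muscle they were 0.46 to 3.15 (median 2.13) and -2.01 to 0.93 (median -0.45), which overlapped only through the suckling array that stood apart, at 0.46 (difference -2.54, SE 0.24, adjusted p = 2.02e-09, or -2.72 without it). At 5 months COL9A3 was lower in fat than in muscle (difference -1.90, SE 0.17, adjusted p = 1.03e-11). With the fat age labels exchanged, as in the lists, both fat differences turned, to 3.23 with age and 1.36 against muscle, and after normexp and loess the difference from muscle was -0.85 and not called. The liver and muscle decreases with age do not rest on the fat labels. COL8A1, a chain of a network-forming collagen of vessel walls, was lower at 5 months than at 12 days in liver (-1.95) and fat (-1.16), and COL6A5, another type VI chain, was higher in liver at 5 months (difference 1.04, SE 0.27, adjusted p = 0.00108), with wide and overlapping ranges of -3.26 to 1.00 (3 of 11 arrays well above background) and -2.02 to 2.33. This COL6A5 difference was 0.15 and not called after normexp and loess, and it was 0.93 to 0.99, just under 2-fold, without any 1 of 7 arrays (LWDL replicate 3 or LWDM replicates 1 or 5 of sucklings, LWDL replicates 1 or 4 or LWDM replicates 2 or 4 of fattening pigs). COL6A4P2, listed for fattening liver and known in humans as a pseudogene, was never well above background on all arrays of a group.

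POSTN encodes periostin, a matricellular protein of collagen-rich tissues. In fat its log2 ratios were 3.55 to 4.98 (median 4.34) in sucklings and -0.39 to 1.88 (median 1.39) in fattening pigs. In muscle they were 2.80 to 4.32 (median 3.84) in fetuses, -2.02 to 0.22 (median -1.12) in sucklings and -6.34 to -2.66 (median -4.12) in fattening pigs. No 2 successive ages overlapped in either tissue, and every array of every age was well above background. POSTN fell by 3.06 in fat (SE 0.22, adjusted p = 6.36e-12). In muscle it differed by -4.74 between sucklings and fetuses (SE 0.23, adjusted p = 3.94e-13) and by -3.35 between fattening pigs and sucklings (SE 0.31, adjusted p = 1.5e-09). Without the array that stood apart, the muscle differences were -4.87 and -3.22. Liver lay between fat and muscle in fattening pigs, at -1.09 to 0.21 (median -0.21), and neither step with age was called in liver. Muscle therefore lay 3.55 above liver in fetuses, with and without the liver array that stood apart, and 3.97 below it in fattening pigs (SE 0.22, adjusted p = 1.68e-16 for the latter), whereas fat lay above muscle by 5.29 in sucklings (SE 0.26, adjusted p = 7.81e-13, or 5.42 without the array that stood apart) and by 5.58 in fattening pigs (SE 0.27, adjusted p = 4.72e-18). With the fat age labels exchanged, POSTN was 2.06 higher in fat of fattening pigs.

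MFAP5, a glycoprotein of the microfibrils around elastic fibers, was high in fat and muscle at every age. Its muscle arrays ranged from 7.23 to 7.48 (median 7.35) in fetuses, and the liver arrays from -2.08 to 0.81 (median -1.67, 1 of 12 well above background). The difference was 8.64 (SE 0.26, adjusted p = 2.69e-19). The 1 liver array well above background was the one that stood apart, and without it the level was at least 441-fold higher in muscle. At 5 months the ratios were 6.15 to 7.27 (median 6.65) in muscle, 5.02 to 6.26 (median 5.63) in fat and -2.56 to 1.2 (median 0.13, 11 of 15 well above background) in liver. Liver did not overlap with the other tissues, and fat and muscle overlapped only at their edges. MFAP5 exceeded liver by 6.91 in muscle (SE 0.20, adjusted p = 4.53e-24) and by 5.87 in fat (SE 0.20, adjusted p = 1.2e-21), and fat differed from muscle by -1.04 (SE 0.13, adjusted p = 1.25e-08), a call that was lost with the fat age labels exchanged (-0.28), after normexp and loess (-0.98) and without LWDL replicate 4 of fat (-0.997). In sucklings 10 of 11 muscle arrays lay between 6.74 and 7.69 and the array that stood apart at -0.54, with a difference from liver of 5.19 (SE 0.72, adjusted p = 1.64e-06) and of 5.94 without it. From fetuses to sucklings MFAP5 rose by 2.53 in liver (SE 0.41, adjusted p = 8.42e-06, or at least 1.41-fold without the fetal array that stood apart), a difference of 0.58 and not called after normexp background correction and loess normalization.

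The thrombospondins THBS1 and THBS2, secreted matricellular proteins that restrain vessel growth, moved in opposite directions in liver between fetuses and sucklings. THBS1 was -0.31 to 3.35 (median 2.86) in fetal liver, the lowest being the array that stood apart, and -0.24 to 1.32 (median 0.40) in suckling liver (difference -2.21, SE 0.29, adjusted p = 6.19e-07, or -2.48 without that array). THBS2 rose by 1.11 in liver over the same interval and fell by 2.58 in muscle, both called, or by 1.08 and 2.18 without the arrays that stood apart. Both thrombospondins were higher in fat than in muscle, THBS1 by 1.16 and 1.52 and THBS2 by 2.54 and 1.90 in sucklings and fattening pigs, all called, with 1.06 and 2.14 in sucklings without the array that stood apart. LAMB3, a chain of the laminin under epithelia, was the only glycoprotein gene that was lower in fat and muscle than in liver in all 5 comparisons with liver (lower by 1.12 to 2.81, or by 1.07 to 2.81 without the arrays that stood apart). From fetuses to sucklings it rose in muscle from -2.14 to -0.99 (median -1.5) to -0.71 to 0.57 (median -0.35), without overlap (difference 1.26, SE 0.17, adjusted p = 9.98e-07, or 1.29 without the array that stood apart).

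NID1 encodes nidogen-1, which links the laminin and type IV collagen networks of basement membranes. In liver its log2 ratios were -4.89 to 0.34 (median -4.32) in fetuses and 0.64 to 1.79 (median 1.05) in sucklings. The groups did not overlap although the fetal arrays spread widely by cross, as described below. NID1 rose by 3.88 in liver (SE 0.36, adjusted p = 3.56e-09, or 3.54 without the fetal array that stood apart) and, from -4.54 to -0.38 (median -2.85) to -1.05 to 0.09 (median -0.69), by 1.91 in muscle (SE 0.15, adjusted p = 5.88e-10, or 1.90 without the suckling array that stood apart). In muscle the difference was 3.79 among LWDM arrays alone and 0.03 among LWDL arrays alone, and in liver it was 5.6 and 2.16, the arrays that stood apart being among the LWDL arrays here. It was lower in muscle than in liver of sucklings (lower by 1.79, or by 1.80 without the array that stood apart) and of fattening pigs (by 3.09) and higher in fat than in muscle (by 1.38, or 1.39 without that array, and by 2.00), all called.

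**Figure D3:**
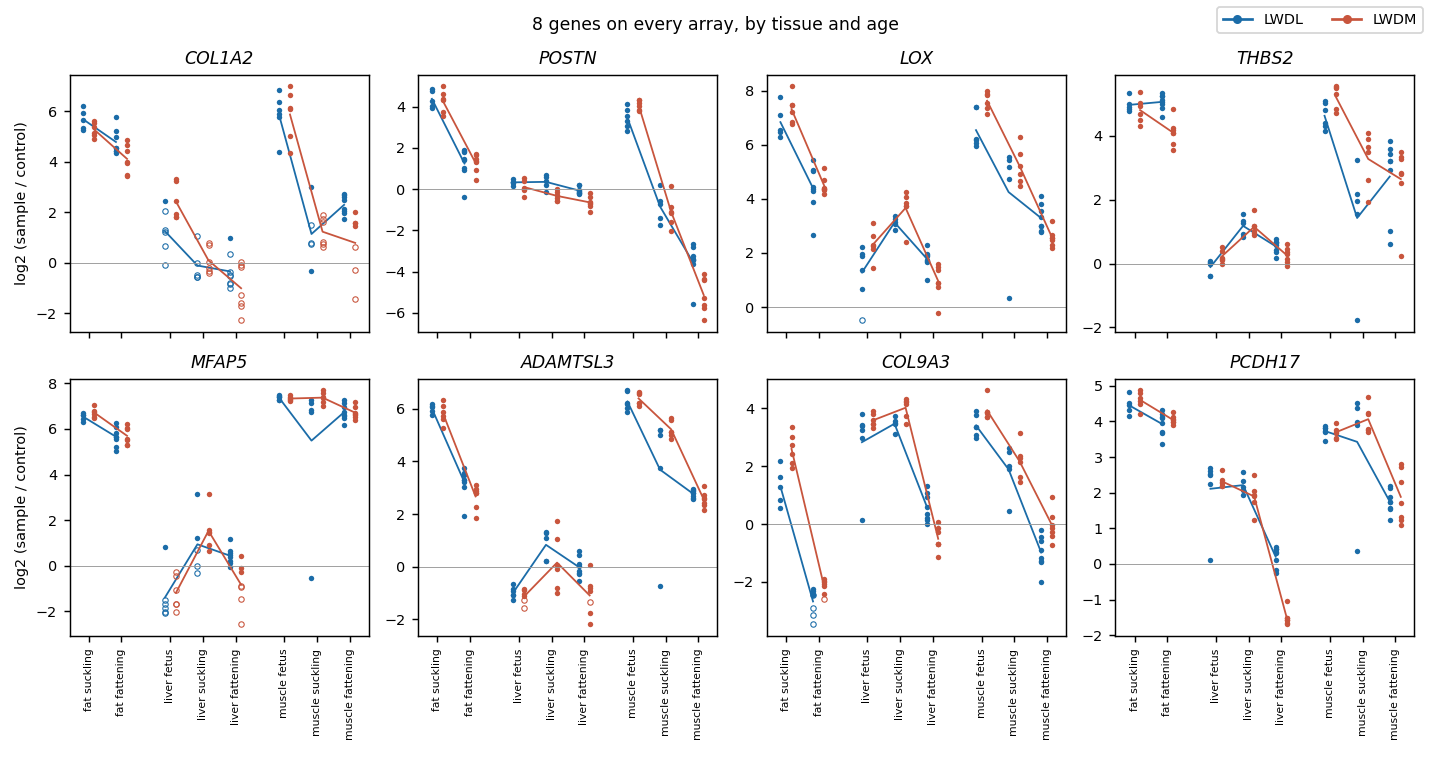
Log2 ratio of sample to control on every array (vertical axis) of 8 genes by tissue and age (horizontal axis), for LWDL (blue) and LWDM (red), with lines through the group means and open points where the spot was not well above background. POSTN fell at each step in muscle and in fat, COL9A3 was lower at 5 months than at 12 days in every tissue, and a low LWDL array in suckling muscle (LWDL replicate 2) pulled down that mean of MFAP5, ADAMTSL3 and THBS2.

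Of the cross-linking and protease genes, LOX, which encodes lysyl oxidase, was higher in muscle and fat than in liver in all 5 comparisons (by 1.33 to 5.29, or 1.55 to 5.12 without the arrays that stood apart) and higher in fat than in muscle (by 2.35, or 1.86 without the suckling array that stood apart, and by 1.53). It fell with age in fat (by 2.63), in muscle (by 2.36 and then 1.81) and in liver after the suckling age (by 2.03), whereas in liver it rose by 1.60 before that age, and all of these differences were called. Without the arrays that stood apart, the decreases in muscle were -1.87 and -2.30 and the rise in liver 1.43. ADAMTSL3, an ADAMTS-like secreted protein without a protease domain, was 5.27 to 6.33 (median 5.92) in suckling fat and -1.01 to 1.74 (median 0.24) in suckling liver, which did not overlap (difference 5.42, SE 0.26, adjusted p = 3.23e-14). In fetuses it was 5.87 to 6.69 (median 6.23) in muscle and -1.57 to -0.65 (median -1.05) in liver (difference 7.37, SE 0.11, adjusted p = 2.04e-25, or 7.38 without the array that stood apart). ADAMTSL3 fell with age at each of the postnatal steps, by 2.98 in fat, 1.04 in liver and 1.78 in muscle (difference -2.33 in muscle without the array that stood apart), all called. ADAMTS2, which removes the amino-terminal propeptide of procollagen, could be tested only in the 3 comparisons with suckling fat, where 10 of 11 arrays were well above background. Suckling liver and suckling muscle had 1 such array of 11 each and fattening fat had 4 of 15. Suckling fat lay 2.93 above liver and 2.38 above muscle (2.21 without the array that stood apart), and the difference with age in fat was -1.47. ADAMTS1, a protease that cuts proteoglycans, was called among tissues and ages only at 5 months, when fat and muscle lay 2.16 and 2.04 above liver after a decrease of 2.16 in liver.

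ADAMTS19 and ADAMTS20, secreted proteases of the same family, were well above background on 0 of 11 suckling liver arrays. At 5 months ADAMTS20 was so on 0 of 15 liver arrays, whereas ADAMTS19 was well above background on 5 of 7 LWDM and 0 of 8 LWDL arrays. In suckling liver all 11 ADAMTS19 ratios were exactly 0, compared with 4.93 to 6.33 (median 5.49) in suckling fat, an at least 2.92-fold higher level in fat (adjusted p = 4.67e-21). Fetal liver was at 0.00 to 4.24 (median 3.39, 11 of 12 arrays well above background), the lowest being the array that stood apart, and the level in suckling liver was at least 1.4-fold lower (adjusted p = 1.35e-08), or at least 1.47-fold without that array. ADAMTS20 was 1.66 to 6.15 (median 4.75) in suckling muscle and 0 on all suckling liver arrays, an at least 2-fold higher level in muscle (adjusted p = 8.29e-10), or at least 1.86-fold without the muscle array that stood apart. At 5 months it was 0.53 to 5.26 (median 3.51, 12 of 15 well above background) in muscle and 0 on all liver arrays (at least 1.44-fold higher, adjusted p = 3.26e-13). Its fat arrays overlapped with muscle and lay lower on average, by 1.38 in sucklings (SE 0.37, adjusted p = 0.00268, or 1.73 without the array that stood apart) and by 1.13 at 5 months (SE 0.33, adjusted p = 0.00268, with 7 of 15 fat arrays well above background), the latter at 0.99 without LWDM replicate 3 of fat and at -0.52 as fat minus muscle with the fat age labels exchanged. In LWDL arrays alone fat minus muscle was -1.62 in sucklings and -0.72 at 5 months, neither called. The suckling LWDL arrays include the muscle array that stood apart. After normexp and loess, the ADAMTS20 differences were 0.76 for muscle against liver and -0.50 and -0.29 for fat against muscle, and that of ADAMTS19 between suckling and fetal liver was -0.77, none of them called.

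ADAMDEC1, an ADAM-like protease, was measured by 2 probes. The brighter one, used here, was well above background on 19 arrays, all of fat, and the other one on 69 arrays, among them 13 of 15 of fattening liver and 15 of 15 of fattening muscle. By the brighter probe, in suckling fat it was 4.06 to 5.99 (median 5.16, 11 of 11 arrays well above background) and in suckling muscle -0.73 to 0.71 (median 0.00, 0 of 11), an at least 4.36-fold higher level in fat (adjusted p = 4.25e-14), or at least 4.34-fold without the array that stood apart. In fattening fat it was -0.82 to 5.13 (median 1.84, 8 of 15), lower than in sucklings by 3.32 (SE 0.33, adjusted p = 1.86e-09), and at least 1.64-fold higher than in fattening muscle (adjusted p = 5.59e-11). A second ADAMDEC1 probe gave 0.77 in place of 2.25 for fat against liver at 5 months and -0.48 against muscle, neither called, so these differences rest on 1 of 2 probes, and against muscle the first probe gave 0.89 and was not called after normexp and loess. With the fat age labels exchanged, ADAMDEC1 was 2.66 higher in fattening fat. MMP7, a metalloprotease of epithelia, was a liver gene in these arrays: in liver of fattening pigs it was -0.98 to 1.53 (median 0.11), in fat -7.30 to -5.56 (median -6.65, 4 of 15 well above background) and in muscle -7.05 to -5.78 (median -6.41, 9 of 15). Neither tissue overlapped with liver, and MMP7 was lower by 6.70 in fat (SE 0.15, adjusted p = 1.61e-26) and by 6.50 in muscle (SE 0.15, adjusted p = 1.24e-26). In sucklings fat was lower by 5.52 (SE 0.38, adjusted p = 1.88e-11) and muscle by 5.20 (SE 0.70, adjusted p = 1.15e-06), or by 5.95 without the muscle array that stood apart, which was at 0.92. Only 1 of 11 suckling muscle arrays was well above background, so the muscle difference is set against background. In fetal muscle MMP7 was well above background on 0 of 12 arrays and at least 9.49-fold lower than in liver (adjusted p = 1.19e-16), or at least 8.48-fold without the liver array that stood apart. MMP3 and ADAMTS3 were not well above background on all arrays of any group and were not tested. Without the fetal liver array that stood apart, MMP3 could be tested through fetal liver alone, whereas fetal muscle and suckling liver were well above background on 1 of 12 and 4 of 11 arrays.

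Of the cadherins, CDH1 encodes E-cadherin, the adhesion protein of epithelial junctions, and was highest in liver at each age. In suckling liver it was -1.72 to -0.79 (median -1.49) and in suckling fat -6.83 to -5.51 (median -6.20, 4 of 11 well above background), without overlap (difference -4.85, SE 0.16, adjusted p = 1.96e-17). Suckling muscle was lower than liver by 3.51 (SE 0.41, adjusted p = 2.05e-07, or 3.96 without the array that stood apart, which was at -0.52), with 2 of 11 muscle arrays well above background. Fetal muscle, at -5.28 to -4.39 (median -4.75), lay below fetal liver, at -1.70 to 0.20 (median -1.08, difference -3.78, SE 0.15, adjusted p = 5.98e-17, or -3.65 without the array that stood apart). At 5 months CDH1 was -1.24 to 0.54 (median -0.25) in liver, higher than in sucklings by 1.06 (SE 0.15, adjusted p = 5.82e-07), or by 0.99 without LWDL replicate 3 of sucklings and by 0.69 in the Cy3 channel alone, neither called. Fat of fattening pigs was -7.97 to -2.20 (median -5.13, 8 of 15 well above background), lower than liver by 4.28 (SE 0.20, adjusted p = 4.04e-18) and higher than suckling fat by 1.62 (SE 0.23, adjusted p = 7.1e-07), and with the fat age labels exchanged the age difference was -1.31. The mean CDH1 ratio in fat was -6.11 in suckling and -6.45 in fattening LWDL pigs and -6.26 and -2.67 in LWDM pigs, so that the averaged rise came from LWDM arrays. Muscle of fattening pigs was -4.47 to -3.30 (median -3.69), higher than suckling muscle, where few arrays were above background, by 1.08 (SE 0.36, adjusted p = 0.0111), or by 1.52 without the array that stood apart. In LWDL arrays alone, which include the array that stood apart, this muscle difference was 0.26 and not called. It was 1.1 and not called (adjusted p = 0.0539) with slide as a random block, and 0.91 to 0.98 without LWDL replicates 1, 3, 4 or 5 or LWDM replicate 5 of sucklings. After normexp and loess it was -0.03 in muscle, 0.81 between the fat ages and 0.97 between the liver ages, none called.

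CDH19, a cadherin known from Schwann cell precursors, was -3.79 to -2.82 (median -3.27, 0 of 11 well above background) in suckling liver and -2.70 to -0.29 (median -0.79, 13 of 15) in fattening liver, an at least 1.37-fold higher level at 5 months (adjusted p = 1.47e-12), with a difference of 0.28 and no call after normexp and loess. PCDH17, a protocadherin known from the nervous system and vessels, went the other way, from 1.24 to 2.58 (median 2.06) in suckling liver to -1.69 to 0.49 (median -0.26) in fattening liver. These did not overlap (difference -2.71, SE 0.11, adjusted p = 4.04e-17). In muscle PCDH17 was 0.36 to 4.68 (median 3.98) in sucklings and 1.08 to 2.81 (median 1.73) in fattening pigs, and overlapped only through the array that stood apart (difference -1.93, SE 0.33, adjusted p = 1.42e-05, or -2.31 without it). PCDH11X, a protocadherin gene of the X chromosome, was 4.33 to 6.99 (median 5.57) in fattening fat, 1.67 to 3.33 (median 2.63, 4 of 15 well above background) in muscle and 0.00 to 0.99 (median 0.00, 0 of 15) in liver. It was at least 3.09-fold higher in fat than in liver (adjusted p = 1.75e-24) and 2.94 higher than in muscle (SE 0.18, adjusted p = 4.02e-15). PCDHB16, of the clustered protocadherins, lay above liver in all 5 comparisons (by 1.30 to 2.51, or 1.30 to 2.60 without the arrays that stood apart, all called), with 7 of 12 fetal, 3 of 11 suckling and 5 of 15 fattening liver arrays well above background. CDH6 did so in 3 of 5 (suckling fat, fattening fat and fetal muscle, by 1.00 to 1.75, with and without the fetal liver array that stood apart).

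The claudins did not move together. CLDN14, a tight junction protein of liver among other epithelia, was low outside liver. In sucklings it was -0.24 to 1.14 (median 0.38) in liver, -6.18 to -5.39 (median -5.78, 9 of 11 well above background) in fat and -4.99 to 0.00 (median -4.66, 10 of 11) in muscle, where the highest was the array that stood apart. Fat lay below liver by 6.14 (SE 0.10, adjusted p = 7.23e-23) and below muscle by 1.59 (SE 0.40, adjusted p = 0.00184, or 1.13 without that array). Muscle lay below liver by 4.55 (SE 0.40, adjusted p = 4.75e-09, or 5.01 without it). At 5 months liver was -1.52 to 0.00 (median -0.81), fat -6.15 to -5.51 (median -5.75) and muscle -5.14 to -4.53 (median -4.73), and none of the tissues overlapped. Fat was 5.06 below liver (SE 0.09, adjusted p = 2.67e-29) and muscle 4.06 below it (SE 0.09, adjusted p = 1.13e-26). In fetuses the ratios were -3.87 to -0.11 (median -2.37) in liver and -6.49 to -5.17 (median -5.77, 9 of 12) in muscle, a difference of -3.28 (SE 0.29, adjusted p = 3.55e-10, or -2.99 without the array that stood apart). CLDN14 rose from fetuses to sucklings by 2.91 in liver (SE 0.30, adjusted p = 1.43e-08, or 3.19 without the array that stood apart) and by 1.63 in muscle (SE 0.39, adjusted p = 0.000831, or 1.17 without it). The muscle rise was not called in the Cy3 channel alone (0.54) or in LWDM arrays alone (0.83), and neither was the suckling fat and muscle difference in the Cy3 channel alone (-0.81) or in LWDL arrays alone (-2.13). The LWDL arrays here include the muscle array that stood apart, at 0.00. CLDN10 fell in liver after the suckling age, from 1.76 to 2.91 (median 2.41) to -1.09 to 0.62 (median 0.06), without overlap (difference -2.30, SE 0.15, adjusted p = 2.14e-13). CLDN11, known from myelin and testis, was instead called higher in fat and muscle than in liver in all 5 comparisons, but 1 of 12 fetal, 3 of 11 suckling and 0 of 15 fattening liver arrays were well above background. At 5 months its level was at least 2.08-fold higher in fat (adjusted p = 6.75e-18) and at least 1.23-fold higher in muscle (adjusted p = 4.26e-14).

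Of the integrin genes, ITGBL1, which encodes a secreted protein with the repeats of integrin beta chains, was high in fat and muscle and near 0 in liver. At 5 months it was 5.49 to 6.78 (median 6.11) in fat, 5.91 to 6.90 (median 6.24) in muscle and -1.89 to 1.04 (median 0.15, 11 of 15 well above background) in liver. Liver did not overlap with either tissue, and ITGBL1 was higher by 6.06 in fat (SE 0.17, adjusted p = 2.68e-24) and by 6.32 in muscle (SE 0.16, adjusted p = 2.11e-25). In fetuses it was 5.41 to 6.49 (median 5.93) in muscle and well above background on 0 of 12 liver arrays, an at least 30-fold higher level in muscle (adjusted p = 7.81e-19), or at least 30.3-fold without the array that stood apart. In suckling muscle 10 of 11 arrays lay between 5.22 and 5.91 and the array that stood apart at -0.34, with a difference from liver of 4.06 (SE 0.58, adjusted p = 2.34e-06) and of 4.64 without it. The rise of 1.33 in muscle after the suckling age (SE 0.42, adjusted p = 0.00781) became 0.75 without that array and was then not called, nor in the Cy3 channel alone (0.52) or in LWDM arrays alone (0.34). ITGA2, the alpha chain of a collagen receptor, was 2.57 to 4.79 (median 4.11) in fetal muscle and -1.73 to 0.77 (median -0.96, 0 of 11 well above background) in suckling muscle, at least 2.23-fold lower (adjusted p = 3.08e-11), or at least 2.22-fold without the array that stood apart. In liver it was 0.52 to 3.22 (median 2.78) in fetuses and -0.14 to 1.45 (median 0.39, 2 of 11) in sucklings (difference -2.08, SE 0.23, adjusted p = 6.32e-08, or -2.24 without the array that stood apart, and -0.47 and not called after normexp and loess). ITGB1BP1 was not tested for lack of signal.

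In fat, the skeletal muscle markers given above were lower at 5 months than at 12 days and higher in LWDM than in LWDL pigs, alongside the members' differences between fat and muscle, between fat ages and between crosses in fat, and their part in those was not tested. The smooth muscle marker ACTA2 was also lower at later ages, going from medians of 1.5 (LWDL) and 2.19 (LWDM) to -0.65 and 0.64 in fat and from 2.80 and 3.05 in fetuses to 2.15 and 2.11 in sucklings and 1.13 and 1.32 at 5 months in muscle, beside the members' decreases there, and its part was not tested. In liver the hepatocyte genes had medians of -7.94 (LWDL) and -7.26 (LWDM) in fetuses, -2.61 and -1.59 in sucklings and -0.49 and -0.89 at 5 months. The immune markers were at -0.54 and -2.27, 0.31 and -0.62, and -0.08 and -0.52. Their part in the members' differences between liver ages was not tested. For 4 members (ADAMDEC1, ADAMTS1, PCDH17 and POSTN) more than 1 probe was tested, and the additional probes gave a difference of the same direction in 47 of 53 pairs, the same call in 49 and an opposite call in 0.

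The difference between LWDL and LWDM pigs was the criterion of the lists, and the values from here to suckling muscle are a description of the members. The same holds for the cell type markers, which also had a name only through these lists. In fattening pigs no slide held both crosses, so slide and cross cannot be told apart at that age. In fetuses and sucklings each tissue had a slide with both crosses, beside slides with only LWDL or only LWDM arrays. Slide is therefore partly mixed with cross at those ages too. In suckling muscle a slide of 3 LWDL arrays was scanned on a day of its own. Of the 40 probes, 17 were listed for liver of fattening pigs, 12 and 3 for fat of sucklings and fattening pigs, 8 for muscle of fattening pigs, 4 for muscle of fetuses, 3 for liver of fetuses and 1 for liver of sucklings. The probes listed more than once were 5, those of NID1 (4 lists), PCDHB16 (3 lists), ADAMTS19, CDH6 and COL6A5 (2 lists each). The member nearest the 2-fold limit from inside was ITGA2 in fattening liver (-1.0), and among listed members just outside it in the present fit was NID1 in suckling fat (-0.92).

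NID1 was lower in LWDM than in LWDL pigs in all 7 tissues and ages used by the lists, and the crosses overlapped only in suckling liver. In fetal liver LWDL pigs had log2 ratios of 0.33, -0.91, -0.02, 0.34 and 0.22 on the 5 arrays other than the one that stood apart, which was at -4.13, and LWDM pigs had -4.89 to -4.52 (median -4.74). The array that stood apart was nearer to the LWDM arrays, and the difference was -4.03 with it, -4.72 without it and -2.75 after normexp and loess. In fetal muscle NID1 was -1.90 to -0.38 (median -0.76) in LWDL and -4.54 to -3.81 (median -4.18) in LWDM pigs, a difference of -3.30, or -2.04 after normexp and loess. In fat of sucklings it was 1.37, 1.12, 1.1, 1.32 and 1.17 in LWDL and 0.14 to 0.62 (median 0.28) in LWDM pigs, and in fat of fattening pigs 0.23 to 1.00 (median 0.72) and -1.40 to -0.48 (median -0.88). The crosses were apart in both ages of fat, by 0.92 and 1.57. With the fat age labels exchanged, except on the 4 fattening arrays that kept theirs, the differences were -1.47 in sucklings and -0.95 in fattening pigs. In liver the ratios were 1.05, 1.79, 1.55, 1.31 and 1.64 in LWDL and 0.64 to 1.05 (median 0.86) in LWDM sucklings, and 1.19 to 1.70 (median 1.56) and 0.37 to 0.63 (median 0.47) in fattening pigs. Muscle of fattening pigs had -1.78 to -1.41 (median -1.69) and -2.82 to -2.20 (median -2.48). These 3 differences, of -0.60, -1.02 and -0.84 (-0.57 after normexp and loess for the last), were smaller than those of the fetuses. The array has 1 probe of NID1 among the named ones, so a sequence difference between the Meishan and Landrace alleles under the probe and a difference in transcript level cannot be told apart.

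**Figure D4:**
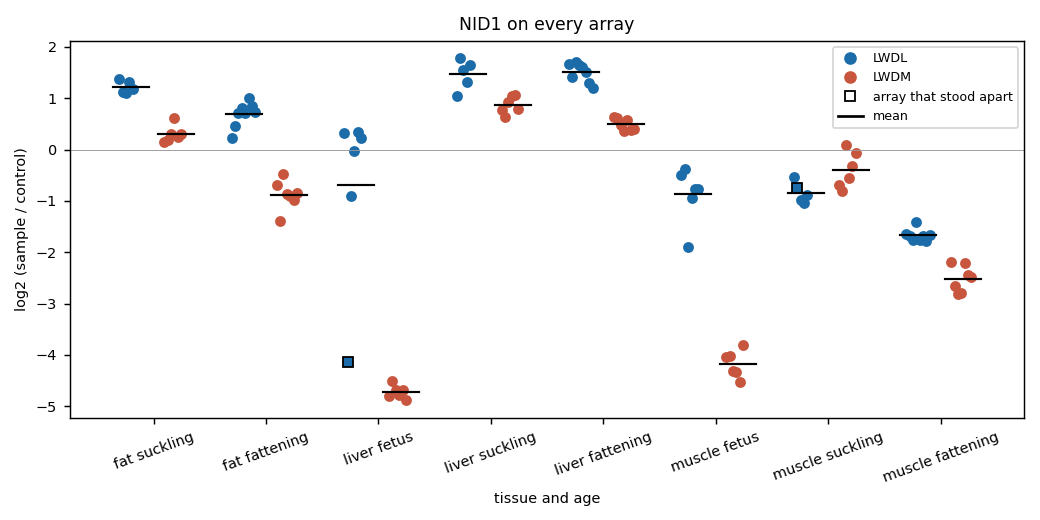
Log2 ratio of NID1 to the control (vertical axis) on every array by tissue and age (horizontal axis) for LWDL (blue) and LWDM (red), with bars at the group means and squares for the 2 arrays that stood apart. LWDM means lay below LWDL means in every tissue and age but suckling muscle, with the widest gaps in fetal liver and fetal muscle, where 1 LWDL liver array lay at -4.13.

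In fattening fat, 2 of the 25 members that could be tested were higher and 4 lower in LWDM pigs by the call rule, where 3.08% of all tested probes were called (1.77% higher and 1.31% lower). Beside the skeletal muscle markers, PECAM1 had a median of 2.18 in LWDL and 1.21 in LWDM pigs there, and ACTA2, the smooth muscle marker, -0.65 and 0.64, and their part was not tested. CDH1 was -7.97 to -5.13 (median -6.27, 1 of 8 arrays well above background) in LWDL and -3.37 to -2.20 (median -2.57, 7 of 7) in LWDM pigs, and ADAMTS19 was 1.26 to 3.95 (median 2.63, 4 of 8) and 4.37 to 5.92 (median 4.98, 7 of 7). Both were separate, with LWDM higher by 3.78 and 2.32, or by 1.5 and 0.83 after normexp and loess, and ADAMTS19 by 1.08 with the fat age labels exchanged. ADAMDEC1 was 1.84 to 5.13 (median 3.53, 8 of 8) in LWDL and -0.82 to 1.19 (median 0.63, 0 of 7) in LWDM pigs, at least 2-fold lower in LWDM, and its second probe differed by -2.10. PCDHB16 was 0.41 to 1.64 (median 1.08) in LWDL and -2.84 to 0.17 (median -0.35) in LWDM pigs, a difference of -1.99 with 4 of 7 LWDM arrays well above background, which became -0.65 after normexp and loess and 0.59 with the fat age labels exchanged. PCDH11X was lower by 1.14 with overlapping crosses. In suckling fat, 3 of 26 members were called higher and 0 lower in LWDM (1.47% of all tested probes called, 0.689% higher): ADAMTS1 by 1.25, COL9A3 by 1.30 and CDH19 by 1.17. PECAM1 had a median of 1.67 in LWDL and 0.78 in LWDM pigs there and ACTA2 of 1.5 and 2.19, and their part was not tested. COL9A3 was 0.56, 1.63, 0.82, 1.29 and 2.19 in LWDL and 1.92 to 3.34 (median 2.59) in LWDM sucklings, which overlapped, whereas ADAMTS1 was 0.23 to 1.21 and 1.73 to 2.43, which did not.

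In fattening liver, 1 of 21 members was called higher and 11 lower in LWDM (2.19% of all tested probes called, 1.09% lower), which is the list that supplied most members. There PECAM1, the 1 named endothelial marker, had a median of 0.68 in LWDL and 0.01 in LWDM pigs, the 4 immune markers -0.08 and -0.52 and the 3 fibroblast markers, 2 of which are members, 0.35 and -0.43, and their part in these differences was not tested. COL6A5 was -0.12 to 2.33 (median 1.19) in LWDL and -2.02 to -0.66 (median -1.51) in LWDM pigs and did not overlap (difference -2.56, or -1.16 after normexp and loess). PCDH17 was -0.26 to 0.49 (median 0.32) and -1.69 to -1.05 (median -1.56), also separate (difference -1.72). LAMB3 was -0.71 to 1.34 (median 0.68) and 1.78 to 2.07 (median 1.93), the only called member higher in LWDM (by 1.49). CDH6 was -0.35 to 1.97 (median 0.42) and -2.0 to 0.30 (median -1.12), which overlapped (difference -1.49), as did MFAP5 (-1.27), ITGBL1 (-1.09), COL9A3 (-1.09), ADAMTSL3 (-1.08) and ITGA2 (-1.0), with 2 to 3 of 7 LWDM arrays well above background for MFAP5, ITGBL1 and ITGA2. MMP7 was 0.11 to 1.53 and -0.98 to 0.02 (difference -1.06). COL8A1 was -1.61 to -0.63 and -2.97 to -1.56 (difference -1.06), which overlapped slightly. ADAMTS19 was exactly 0 on all 8 LWDL arrays and 2.30 to 3.41 (median 2.67, 5 of 7 well above background) in LWDM pigs, at least 1.3-fold higher and not tested. In liver of sucklings 0 of 18 tested members were called (1.7% of all tested probes). There COL6A5, not tested, was 1.00, -0.06, -1.03, -0.40 and -0.38 in LWDL (3 of 5 well above background) and -3.26 to -1.31 (median -2.21, 0 of 6) in LWDM pigs, at least 1.35-fold lower in LWDM. In liver of fetuses NID1 was the only called member of 19 tested (0.834% of all tested probes). The medians of PECAM1 (-0.11 in LWDL and -1.53 in LWDM) and of the immune markers (-0.54 and -2.27) moved with the cross in fetal liver, as did the immune markers in suckling liver (0.31 and -0.62), and their part was not tested.

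**Figure D5:**
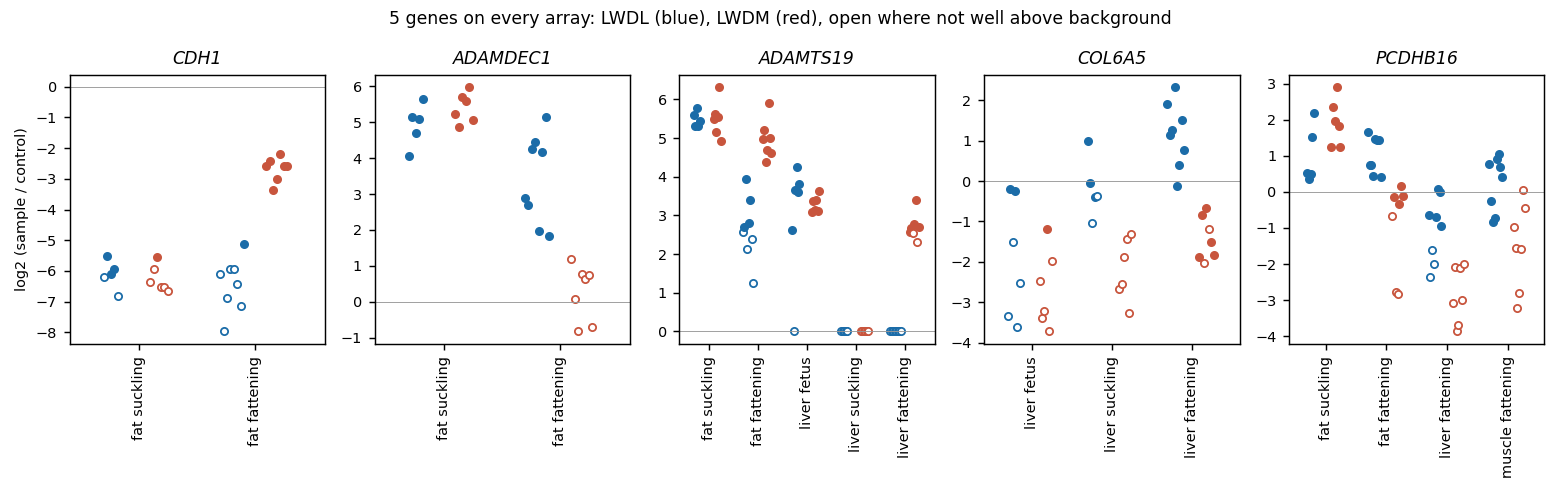
Log2 ratio to the control (vertical axis) on every array of CDH1, ADAMDEC1, ADAMTS19, COL6A5 and PCDHB16 by tissue and age (horizontal axis) for LWDL (blue) and LWDM (red), with open points where the spot was not well above background. CDH1 and ADAMTS19 were higher and ADAMDEC1 lower in LWDM than in LWDL pigs in fat at 5 months, with few LWDL arrays above background for CDH1 and no LWDM array for ADAMDEC1, and COL6A5 was lower in LWDM liver of sucklings and fattening pigs.

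In fattening muscle, 0 of 20 members were called higher and 5 lower in LWDM (1.4% of all tested probes called, 0.605% lower). The median of PECAM1 was 1.16 in LWDL and 0.15 in LWDM pigs there and that of the fibroblast markers, which include COL1A2 and POSTN, 0.11 and -1.27, and their part was not tested. POSTN was -5.57 to -2.66 (median -3.40) in LWDL and -6.34 to -4.12 (median -5.29) in LWDM pigs, and the crosses overlapped through LWDL replicate 8 (difference -1.62). COL1A2 was 1.73 to 2.70 (median 2.29) and -1.42 to 2.02 (median 1.43, 4 of 7 well above background), which overlapped (difference -1.51). CLDN11 (-1.30) and THBS1 (-1.05) were also lower, the former with 1 of 7 LWDM arrays well above background. PCDHB16 was -0.83 to 1.04 (median 0.56) and -3.22 to 0.04 (median -1.57, 0 of 7), at least 1.35-fold lower in LWDM, and the difference was -0.45 after normexp and loess. In muscle of fetuses, 1 of 25 tested members was called higher and 2 lower in LWDM pigs (1.51% of all tested probes called). PECAM1 had a median of 0.34 in LWDL and -1.96 in LWDM fetal muscle, and its part was not tested. LOX was 5.98 to 7.40 (median 6.21) in LWDL and 7.14 to 8.01 (median 7.70) in LWDM fetuses and overlapped (difference 1.09). CDH6 was 2.37 to 3.05 (median 2.63) and 0.65 to 2.29 (median 1.57), which did not overlap (difference -1.13), and NID1 is given above.

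Muscle of sucklings supplied no list, so the difference between crosses could be tested there. None of the 20 tested members was called, and of all 27937 probes tested 0 were called, with 793 at an unadjusted p under 0.05 by limma and 833 by Student's test. NID1 was -0.53, -0.75, -0.99, -1.05 and -0.89 in LWDL and -0.81 to 0.09 (median -0.44) in LWDM sucklings, 0.45 higher in LWDM (SE 0.20, limma adjusted p = 0.711), or 0.48 without the array that stood apart, with overlapping crosses. The largest difference was that of MFAP5, 1.88 (SE 1.21, limma adjusted p = 0.711), and it was 0.38 without the array that stood apart. THBS2 differed by 1.85, and by 1.05 without that array, which was then the largest difference and not called (limma adjusted p = 0.953). CDH6 (0.77, or 0.40 without that array) and PCDHB16 (-0.35, or -0.41) also overlapped. The test of sucklings rests on arrays of which most lay on the side of the other cross in the check above, and p-values here measure the spread between these pigs.

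Among 147 other matrix genes listed from general knowledge, 18 are named in the study's lists of probes that differed between crosses, and only those could be followed. Of those tested, 8 of 15 were higher and 2 lower in fetal muscle than in fetal liver (34.7% of all tested probes called), led by NOV (5.23), NCAM1 (4.97) and ACAN (4.26), or 5.34, 4.93 and 4.26 without the liver array that stood apart, a secreted matrix-associated signaling protein, a neural and muscle cell adhesion molecule and the main cartilage proteoglycan. After birth the directions were mixed. In sucklings 6 of 18 were higher and 5 lower in fat than in liver (30.8% of all tested probes called), 3 and 6 of 14 in muscle than in liver (35.9%) and 7 and 1 of 15 in fat than in muscle (25.7%). In fattening pigs these counts were 4 and 4 of 14 (36.1%), 4 and 5 of 14 (43.6%) and 3 and 2 of 11 (35.7%).

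From fetuses to sucklings 0 of 14 were higher and 8 lower in muscle (27.3% of all tested probes called), with ACAN lower by 4.07, GPC6, a glypican, by 3.62 and NPNT, an integrin ligand of basement membranes, by 2.97 (differences of -4.15, -3.72 and -3.24 without the array that stood apart), and from sucklings to fattening pigs 0 of 10 were higher and 1 lower (24.8%). In fat 2 of 15 were higher and 5 lower in fattening pigs than in sucklings (16.3% called), with NCAM1 lower by 2.89, ACAN by 2.70 and AGRN, the proteoglycan of the neuromuscular junction, by 2.37. In liver 4 of 14 were higher and 6 lower in sucklings than in fetuses (22.3%). From sucklings to fattening pigs 2 of 14 were higher and 2 lower in liver (28.1% called), and PCOLCE2, an enhancer of procollagen processing, was 2.51 higher.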

How the data were processed

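RNA of 102 samples was measured on 2-colour arrays with 43221 probes and 1417 control spots. Per the file headers, Agilent Feature Extraction 9.5 gave the authors' intensity values (background-subtracted, dye-normalized processed signals) and their log10 ratio of Cy5 over Cy3. The deposited series table repeats these log10 values with the sign turned and rounded (largest difference 0.005), and 0 of its columns were unmapped. Here each ratio was turned to log2 of sample over control, without control spots and outlier spots (0 to 15 per array).

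Groups were compared with limma 3.58.1 in R 4.3.3 over all tested probes, with Benjamini-Hochberg adjustment. Tissue and age differences weight LWDL and LWDM equally. A call needs a difference over 2-fold and an adjusted p under 0.05. Lower bounds ("at least N-fold") were taken from the Cy3 channel after normexp (offset 50), loess and quantile normalization, and set the dim side to its lowest signal well above background, and those printed are below the fitted differences. The members and gene lists were chosen with earlier results of these data known. Named with values were the 3 genes with the largest called difference in each direction and contrast, probes in more than 1 list, and the largest difference between crosses per tissue and age. A gene with several probes is represented by its brightest. Some genes were named besides, after their values were seen. Symbols are those of the study's lists. Probe sequences and positions were not used here. The analysis was tested on simulated data.

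Samples of the same number within a cross and age were taken as 1 pig in an alternative, which between ages linked different pigs of the same number. In 57 of 68 pairs of tissues without suckling muscle the array of the same number was the nearest by its deviation from the group mean, and in 7 of 22 pairs with suckling muscle. For fattening fat by the labels, this held in 8 of 8 LWDL and 6 of 7 LWDM pairs with liver. With muscle it held in 8 of 8 and 7 of 7. For suckling fat and liver it held in 4 of 5 LWDL and 6 of 6 LWDM pairs. This pairing was found in the arrays, and the labels give the number only.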

Additional observations from a re-analysis of the deposited data

Results flagged for a closer look

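Of 164 groups of a named member, 19 had 1 array far from the others by Dixon's criterion, which flags about 1 in 20 groups by chance. The 2 arrays that stood apart account for 7 of them. In fetal liver LWDL replicate 2 was at -4.13 for NID1, 0.20 for CDH1, -0.11 for CLDN14 and -0.31 for THBS1. In suckling muscle LWDL replicate 2 was at -0.34 for ITGBL1, -0.54 for MFAP5 and 0.36 for PCDH17.

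In fattening fat of LWDL pigs CLDN14 was at -6.15 in replicate 4, ITGBL1 at 6.78 in replicate 7 and POSTN at -0.39 in replicate 8. In fattening muscle of LWDL pigs ADAMTS20 was at 0.53 and POSTN at -5.57 in replicate 8, and NID1 at -1.41 in replicate 4. In liver MMP7 was at 1.53 in fattening LWDL replicate 4, PCDH17 at -1.05 in fattening LWDM replicate 2 and MFAP5 at 3.17 in suckling LWDM replicate 4. NID1 was at 0.62 in suckling fat of LWDM replicate 4 and at -1.90 in fetal muscle of LWDL replicate 3. LAMB3 was at 0.57 in suckling muscle of LWDL replicate 4.

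For POSTN and THBS2 the same contrast was called in opposite directions in different ages or tissues, without overlap of the arrays in either, and the difference itself was not tested. POSTN was 3.55 higher in muscle than in liver in fetuses and -3.97 in fattening pigs. THBS2 differed between sucklings and fetuses by 1.11 in liver and by -2.58 in muscle. LOX (1.60 in liver and -2.36 in muscle, or 1.43 and -1.87 without the arrays that stood apart) and ADAMTSL3 (1.54 and -1.88, or 1.54 and -1.33 without them) were also called in opposite directions between these ages, with overlapping arrays in at least 1 of the tissues.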

How the results depend on the processing

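The precision rests on the number of arrays and on signal over background. The counts of called members were recomputed under each alternative. With a probe tested only where it was well above background on every array compared, the called members were 9, 8 and 6 for fat against liver, muscle against liver and fat against muscle in sucklings, 10, 9 and 7 in fattening pigs and 7 for muscle against liver in fetuses. With age they were 6 in fat, 7 and 8 for the earlier and later step in liver, and 8 for the earlier step in muscle, since fewer members were tested. After normexp and loess the called members were 12 for muscle against liver and 8 for fat against muscle in fattening pigs, 7 in fat with age, 5 and 4 in liver and 8 for the later step in muscle, and the cause was not tested. Among LWDL arrays alone they were 10 for fat against muscle in sucklings, 6 for the earlier step in liver and 7 for the later step in muscle. Each of these comparisons used fewer arrays and included an array that stood apart, and the cause was not tested. With the fat age labels exchanged, 8 members were called in fat with age, 7 higher and 1 lower in place of 1 higher and 12 lower, and COL9A3 (3.23 with age, 1.36 for fat against muscle at 5 months), ADAMDEC1 (2.66), POSTN (2.06), CDH1 (-1.31) and the cross difference of PCDHB16 in fattening fat (0.59) turned, by the construction of that alternative. The 4 fattening fat arrays whose numbers do not occur among sucklings kept their label in it. CDH1 turned to -0.0251 in muscle after suckling under normexp and loess.

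Each array left out in turn gave 23 to 25, 18 to 19 and 15 to 17 called members in sucklings, 26 to 27, 21 to 22 and 17 to 19 in fattening pigs, 21 to 22 in fetuses, 11 to 13 in fat with age, 13 to 15 and 11 to 14 in liver, 16 to 18 and 11 to 14 in muscle and 0 between crosses in suckling muscle, with 0 members called in the opposite direction. With the replicate block, which links arrays of the same cross and number, 17 members were called for the earlier step in muscle, and the counts of the other 11 comparisons were those given in the report. Between tissues this block pairs the arrays of a pig by number. Between ages it links different pigs that share only a number, so it is no pairing there. The block could not be fitted between crosses in suckling muscle, where each array is its own pig. The series table, the Cy3 channel alone, no filter on signal, the slide as a block and LWDM arrays alone left every count within 1.5 times. Of the values of named members under all alternatives, 2789 kept direction and call or moved by less than 1 SD, 45 kept the direction without the call, 17 moved by more and 7 turned.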
